A study of Homo sapiens with 3 samples.

Results

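Respiratory chain and ATP synthase genes were taken from the platform annotation by symbol: the NDUFA, NDUFB, NDUFC, NDUFS, NDUFV, SDHA to SDHD, UQCR and ATP5 families, COX followed by a digit, and CYC1, with 1 pseudogene left out. This gave 41 genes of 14884 named on the array, 38 of them protein coding, each represented by the probe set with the highest mean level over the arrays. The cells were A549, an established lung cancer line of human origin, transfected with an siRNA against TAZ (siTAZ), an siRNA against YAP (siYAP) or a control siRNA (siNC). RNA was isolated 48 h later. Each transfection gave 1 array, so there were 3 arrays and no replicate, no difference could be set against the spread between cultures, and no test or error is given. The knockdowns were in bulk cultures of 1 line, and the 2 comparisons with siNC shared its array.

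The respiratory chain passes electrons from NADH and succinate through complexes I and II to ubiquinone, then through complex III and cytochrome c to complex IV, which reduces oxygen. Complexes I, III and IV pump protons across the inner mitochondrial membrane, and ATP synthase uses the gradient to make ATP. Most subunits are encoded in the nucleus, and dedicated assembly factors insert their copper, heme, flavin and iron-sulfur groups.

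The name of the group covered more than the named probe sets did. Of 53617 probe sets 37519 had no single gene symbol in the annotation and were not used. A gene missing here is therefore not shown to be missing from the array. The 41 genes held 6 subunits of complex III, 16 of complex IV and 2 small membrane subunits of ATP synthase. They held 0 of 37 listed complex I subunits and 0 of 4 complex II subunits, and neither the catalytic subunits of ATP synthase nor any mitochondrially encoded subunit had a named probe set. The other members were the ATP synthase inhibitor ATP5IF1, COX7A2L, 12 assembly factors (6 for complex IV, 4 for complex II and 2 for complex I) and 3 non-coding transcripts named after a neighbouring gene (COX10-DT, NDUFA6-DT and NDUFB2-AS1). The values below therefore describe mainly complexes III and IV.

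Levels are on a log2 scale and relative to the other probe sets of the array. Over all 53617 probe sets the median level was 4.26 on the siTAZ array, 4.27 on the siYAP array and 4.28 on the siNC array. Of the 41 genes, 37 had a mean level at or above 4.27, the median of the mean levels of all probe sets, and were kept. The same filter kept 10768 of the 14884 named genes. WWTR1, which encodes TAZ, had levels of 5.81, 6.50 and 6.50 on the siTAZ, siYAP and siNC arrays, 1.61-fold lower on the siTAZ array. YAP1 had 8.24, 6.87 and 8.45 in the same order. It was thus 2.99-fold lower on the siYAP array and also 1.16-fold lower on the siTAZ array. Of 8 epithelial markers 7 were named and kept, with mean levels of 7.01, 7.12 and 7.12 on the siTAZ, siYAP and siNC arrays. They ranged from CLDN4, at 4.67 on all 3 arrays, to KRT18, at 11.38, 11.56 and 11.56 in the same order. KRT7 was at 6.10 on the siTAZ array and 6.51 on the other arrays, 1.33-fold lower on the siTAZ array. Relative to siNC, 3 of the 7 were lower, 4 identical and 0 higher on the siTAZ array. On the siYAP array 2 were lower, 4 identical and 1 higher. Of all kept genes 21.7% were lower on each knockdown array. Among markers of other cells, 3 of 8 leukocyte markers were named and had mean levels of 6.0, 6.02 and 5.81 in the same order, 4 of 6 endothelial markers had 4.38, 4.36 and 4.31, and 3 of 8 fibroblast markers had 5.19, 5.18 and 5.02. CD68, a lysosomal glycoprotein of macrophages, was at 9.0, 9.02 and 8.43 and LUM, a matrix proteoglycan, at 8.14, 8.10 and 7.45. CD68 and LUM were higher on both knockdown arrays, as many of the genes below were. PECAM1 of the endothelial list was also higher on both, at 3.90, 3.80 and 3.60 in the same order. CD14 was higher on the siYAP array alone, at 4.55 against 4.49 on the other arrays. THY1 of the fibroblast list was lower, at 5.06 on both knockdown arrays and 5.22 on the siNC array. DCN (2.38), CD2, VWF, KDR and CLDN5 were identical on all 3. The part of these markers in the results was not tested.

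The 4 genes that were at least 1.2-fold higher on the siTAZ array than on the siNC array were SDHAF3, UQCRC1, COX8A and UQCRC2. The 250 bases before their RefSeq transcription starts (build GRCh38.p14) are shown because these are the members with the largest differences. Capitals mark 3 of the 4 motifs searched on both strands: the NRF1 core GCGCANGCG, the ETS-family core CCGGAAG and the TEAD core GGAATG. NRF1 and the ETS-family factor GABP are known regulators of nuclear genes for the respiratory chain, and TEAD factors bring YAP and TAZ to DNA. The stretches lie at chr7:97117448-97117697 on the plus strand (SDHAF3), chr3:48609647-48609896 on the minus strand (UQCRC1), chr11:63974370-63974619 on the plus strand (COX8A) and chr16:21953111-21953360 on the plus strand (UQCRC2), and all are printed along the strand of the gene.
SDHAF3: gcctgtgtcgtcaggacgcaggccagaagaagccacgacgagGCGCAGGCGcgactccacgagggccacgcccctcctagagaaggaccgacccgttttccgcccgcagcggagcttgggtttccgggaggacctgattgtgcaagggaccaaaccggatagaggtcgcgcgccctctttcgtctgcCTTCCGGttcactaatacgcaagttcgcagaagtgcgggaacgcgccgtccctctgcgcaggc
UQCRC1: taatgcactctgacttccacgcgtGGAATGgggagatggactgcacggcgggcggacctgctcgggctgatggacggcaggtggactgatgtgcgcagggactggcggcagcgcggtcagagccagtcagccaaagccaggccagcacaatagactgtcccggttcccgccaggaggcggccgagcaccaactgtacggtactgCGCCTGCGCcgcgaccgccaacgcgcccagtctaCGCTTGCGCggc
COX8A: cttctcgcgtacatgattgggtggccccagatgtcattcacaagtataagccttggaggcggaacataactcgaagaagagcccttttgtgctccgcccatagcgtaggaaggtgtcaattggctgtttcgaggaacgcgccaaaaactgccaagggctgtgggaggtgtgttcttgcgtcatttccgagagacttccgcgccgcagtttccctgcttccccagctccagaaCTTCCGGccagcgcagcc
UQCRC2: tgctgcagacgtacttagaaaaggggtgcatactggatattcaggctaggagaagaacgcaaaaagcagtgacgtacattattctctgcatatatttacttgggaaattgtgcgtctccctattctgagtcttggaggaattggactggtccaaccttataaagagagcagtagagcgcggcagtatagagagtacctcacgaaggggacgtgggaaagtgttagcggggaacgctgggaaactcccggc

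SDHAF3 held an NRF1 core starting 208 bases before the start and an ETS core at 63 bases, UQCRC1 held NRF1 cores at 46 and 12 bases and a TEAD core at 226 bases, COX8A held an ETS core at 18 bases, and UQCRC2 held none of the motifs in this window. No printed motifs overlapped. Promoters were given for 31 of the 38 protein-coding members. Of these, 8 (25.8%) held the NRF1 core, against 7.02% of 27305 promoters and 11.8% of the 8315 promoters of kept genes. The ETS core was also in 8 (25.8%), against 8.82% of all promoters and 14.3% of those of kept genes. The TEAD core was in 3 (9.68%), of UQCRC1, COX5A and ATP5IF1, against 11.9% of all promoters and 9.67% of those of kept genes. The fourth motif, the YY1 core AAGATGGCG, was in 0 of the 31 and in 0.641% of all promoters. These are matches of letters, and binding was not measured.

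The first comparison asked what TAZ knockdown does to these genes, and the second asked the same of YAP knockdown. Of the 41 genes, 22 were higher, 4 lower and 15 identical on the siTAZ array relative to the siNC array. On the siYAP array 23 were higher, 0 lower and 18 identical. Of all 14884 named genes 25.1% were higher, 20.1% lower and 54.8% identical on the siTAZ array. The shares on the siYAP array were 22.9%, 20.2% and 56.9% in the same order. The differences were small: 4 of the 37 kept members were at least 1.2-fold higher on the siTAZ array, where 5.62% of all kept genes were, and 0 of the 37 on the siYAP array, where 4.05% were. At least 1.2-fold lower were 0 members in both comparisons, against 4.89% of kept genes on the siTAZ array and 3.15% on the siYAP array. No member was 1.5-fold higher or lower in either comparison, a size reached in the higher direction by 0.762% of kept genes on the siTAZ array and 0.52% on the siYAP array, and in the lower direction by 1.02% and 0.381%. In cultures measured as a whole, a difference in RNA per cell and a difference in the mix of cells cannot be told apart.

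Among the 37 kept members 22 (59.5%) were higher on the siTAZ array by any amount, against 29.7% of all kept genes, and 4 (10.8%) were lower, against 21.7%. On the siYAP array 23 (62.2%) were higher, against 27%, and 0 lower, against 21.7%. The median difference of the kept members was 0.047 on the log2 scale for siTAZ minus siNC and again for siYAP minus siNC, and the median over all kept genes was 0 in both. Higher values were more common among all genes with higher levels, and so were lower values. At or above the median level of the kept genes 25.6% of genes were lower on the siTAZ array, against 17.8% below it. On the siYAP array these shares were 26.8% and 16.6%. At or above the median level of the kept genes (6.22), 16 of 23 members (69.6%) and 41.8% of 5384 genes were higher on the siTAZ array. In the same range 19 of 23 members (82.6%) and 37.6% of genes were higher on the siYAP array. Below that level 6 of 14 members and 17.7% of genes were higher on the siTAZ array, and 4 of 14 members and 16.4% of genes on the siYAP array. With 1 array per condition, no test of these shares was made.

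**Figure D1:**
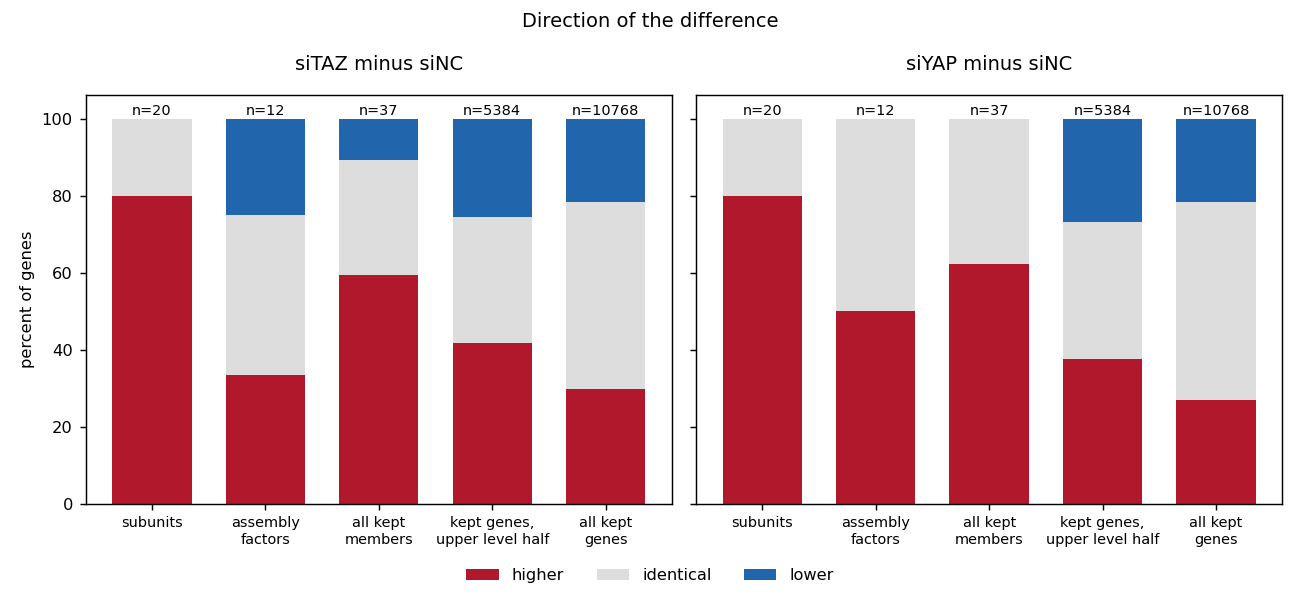
Stacked bars give the percent of genes that were higher (red), identical (grey) or lower (blue) than on the siNC array, on the siTAZ array (left panel) and the siYAP array (right panel), for the 20 kept subunit genes, the 12 assembly factors, all 37 kept members, the 5384 kept genes at or above the median level and all 10768 kept genes. The subunit bars hold 80% higher and 0% lower genes in both panels.

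Many values in the deposited table were identical between arrays, within 1e-09. All 3 arrays had the same value for 9 of the 37 kept members (24.3%) and for 41.1% of all kept genes, and the siYAP and siTAZ values were identical for 17 of 37 members (45.9%) and for 53.9% of all kept genes. An identical value here is a property of the summarised table, and whether it reflects an unchanged transcript was not tested.

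The subunits held most of the higher values. Of the 20 kept subunit genes 16 (80%) were higher and 0 lower on each knockdown array relative to the siNC array. Their median difference was 0.15 for siTAZ minus siNC and 0.12 for siYAP minus siNC. Of all kept genes 29.7% were higher on the siTAZ array and 27% on the siYAP array, and 21.7% were lower on each. At or above the median level of the kept genes 41.8% and 37.6% were higher. Of the 12 assembly factors 4 were higher and 3 lower on the siTAZ array, and 6 were higher and 0 lower on the siYAP array, with medians of 0 and 0.0084.

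**Figure D2:**
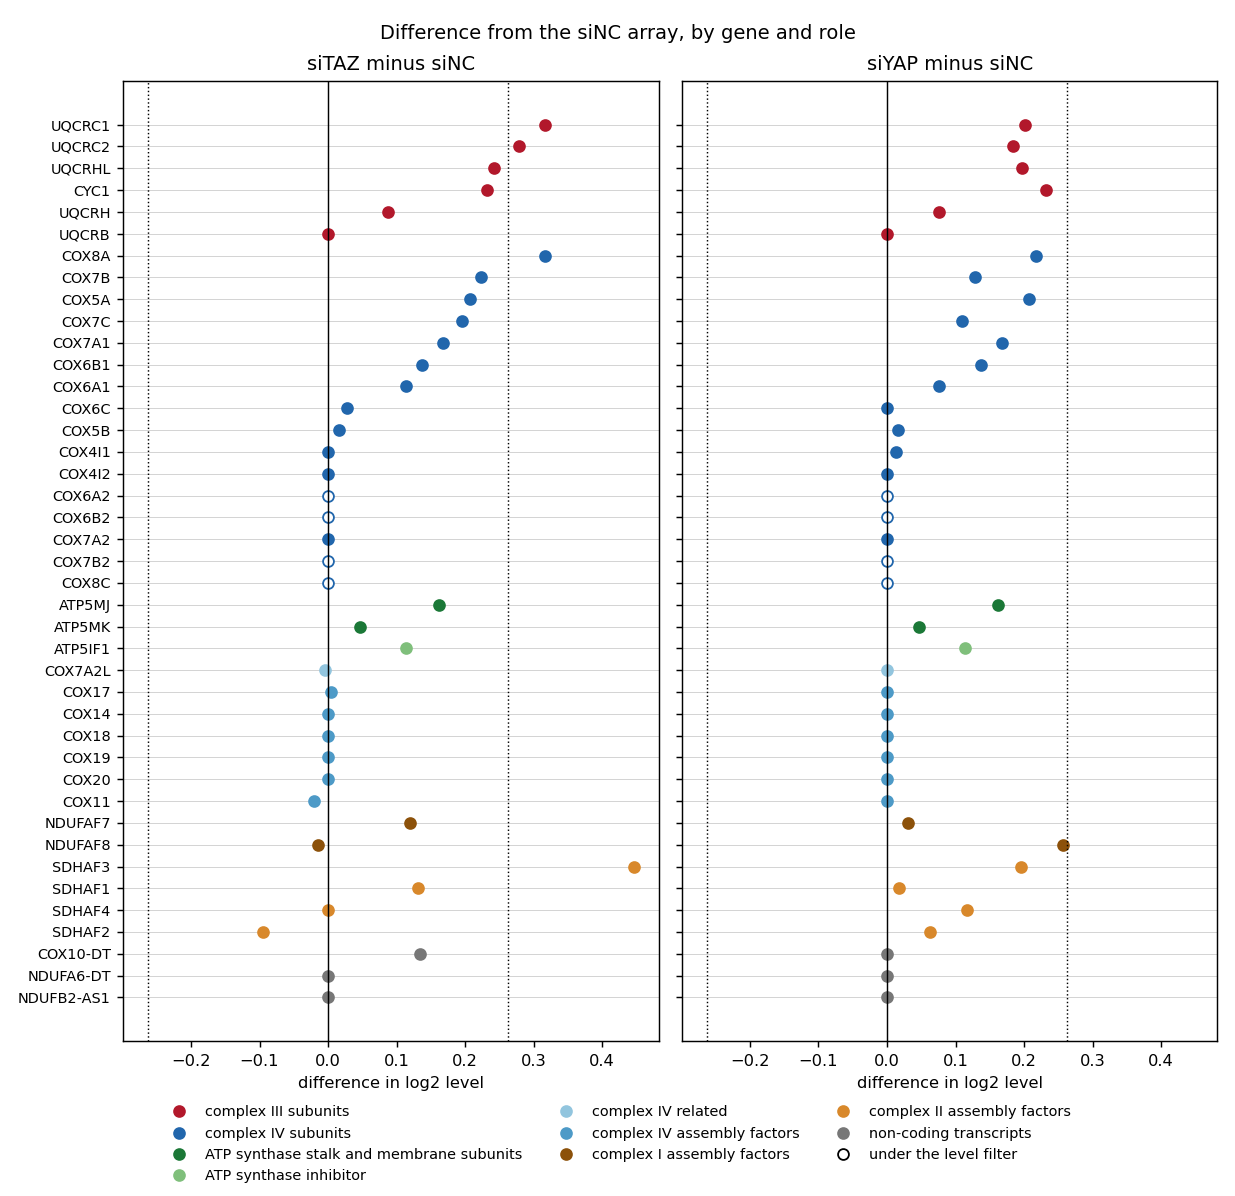
Each point is 1 of the 41 genes, placed by its difference in log2 level from the siNC array, for the siTAZ array (left) and the siYAP array (right). Colours give the role, open points the 4 genes under the level filter, and dotted lines a 1.2-fold difference. Complex III genes reach 0.32 on the left and 0.23 on the right, while the 6 complex IV assembly factors lie between -0.02 and 0.0038.

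Complex III, which passes electrons from ubiquinol to cytochrome c, had the largest median of the roles with at least 4 kept members, at 0.24 for siTAZ minus siNC and 0.19 for siYAP minus siNC over its 6 genes. UQCRC1, a core protein on the matrix side, had levels of 8.76 on the siTAZ array, 8.64 on the siYAP array and 8.44 on the siNC array. It was 1.25-fold higher on the siTAZ array and 1.15-fold higher on the siYAP array. UQCRC2, the second core protein, had levels of 11.32, 11.23 and 11.04 on the siTAZ, siYAP and siNC arrays, 1.21-fold and 1.14-fold above siNC. For both core proteins the siTAZ array was highest and the siNC array lowest. CYC1, cytochrome c1, carries the heme that hands electrons to cytochrome c. Its level was 9.39 on both knockdown arrays and 9.15 on the siNC array, a 1.17-fold difference.

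UQCRH, the acidic hinge protein, had levels of 5.94, 5.92 and 5.85 on the siTAZ, siYAP and siNC arrays. UQCRHL, an intronless copy of UQCRH, had levels of 8.72 on the siTAZ array, 8.67 on the siYAP array and 8.47 on the siNC array, which placed it just under 1.2-fold on the siTAZ array (1.18-fold). The 2 genes are close copies, so their probes may share signal and the values of each are uncertain. UQCRB, which lies near the ubiquinone site, was at 5.21 on all 3 arrays; its probe set is annotated to a non-coding transcript of the gene.

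**Figure D3:**
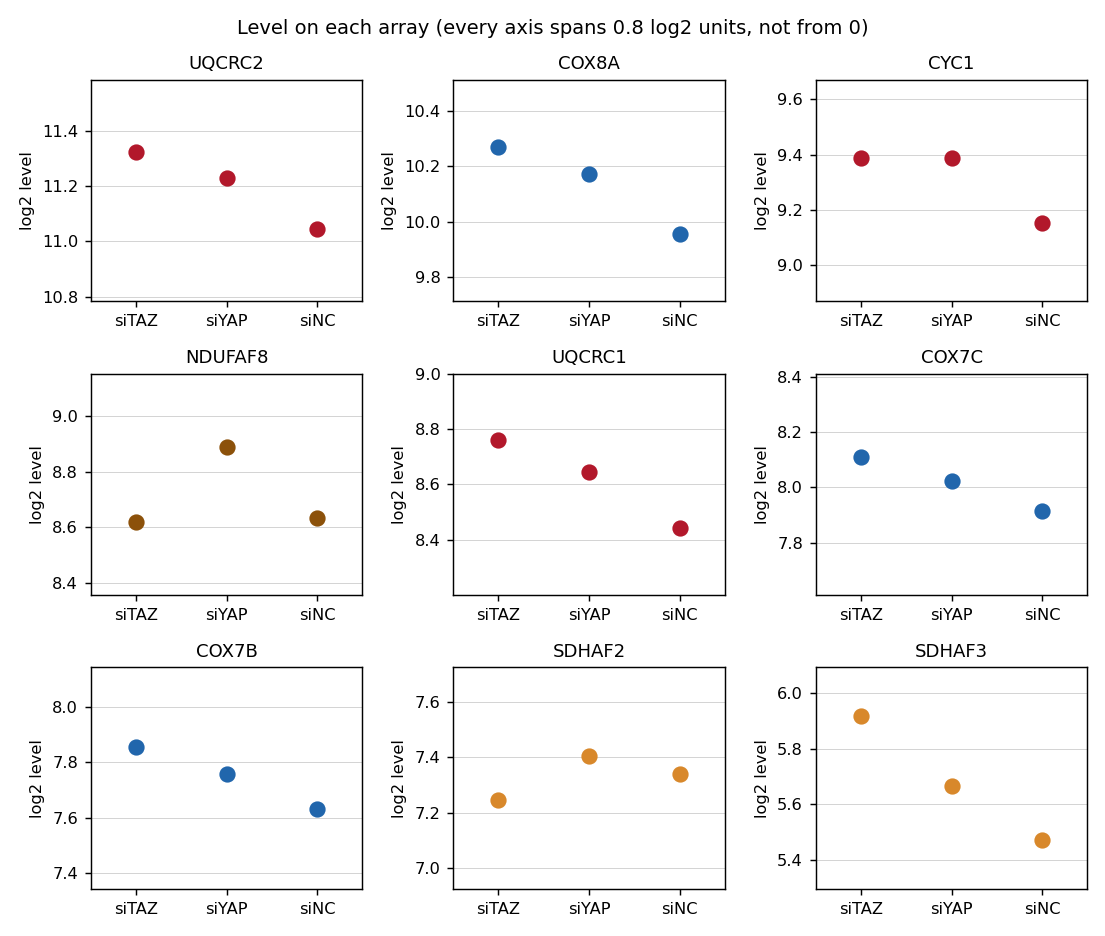
Points give the log2 level of 9 genes on the siTAZ, siYAP and siNC arrays, 1 array each, on axes that span 0.8 log2 units and do not start at 0. UQCRC2, UQCRC1, COX8A, COX7B, COX7C and SDHAF3 descend in the order siTAZ, siYAP, siNC, CYC1 is equal on the knockdown arrays, and NDUFAF8 stands out on the siYAP array at 8.89.

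Of the 16 complex IV subunits 12 were kept, of which 9 (75%) were higher and 0 lower on each knockdown array relative to siNC. Of all kept genes 29.7% were higher on the siTAZ array and 27% on the siYAP array, and 21.7% were lower on each. COX8A, a small subunit of the enzyme's membrane part, had levels of 10.27 on the siTAZ array, 10.17 on the siYAP array and 9.95 on the siNC array. It was 1.25-fold higher on the siTAZ array and 1.16-fold higher on the siYAP array. COX7B, another small membrane subunit, had levels of 7.85, 7.76 and 7.63 in the same order, and COX7C had 8.11, 8.02 and 7.91. All 3 genes were highest on the siTAZ array and lowest on the siNC array.

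COX5A, a matrix-side subunit, had a level of 10.80 on both knockdown arrays and 10.59 on the siNC array, a difference of 0.21. COX6B1, which faces the intermembrane space where complex IV forms dimers, had 7.89 on both knockdown arrays and 7.76 on the siNC array. The values of these genes were identical on the knockdown arrays and higher than on the siNC array. Identical knockdown values that differed from siNC were found for 8 of 37 kept members and 1377 of 10768 kept genes. The zinc-binding subunit COX5B lay close to siNC, with 6.58 on both knockdown arrays and 6.56 on the siNC array. COX6C was also close, with 4.97, 4.94 and 4.94 on the siTAZ, siYAP and siNC arrays. COX4I1, the common form of the largest nuclear-encoded subunit, was at 10.80 on the siTAZ array, 10.81 on the siYAP array and 10.80 on the siNC array. COX5B, COX6C and COX4I1 thus differed from siNC by at most 0.027 on either knockdown array.

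COX6A1, the common form of its subunit, had levels of 11.88, 11.85 and 11.77 on the siTAZ, siYAP and siNC arrays from the probe set used here. Its other probe set read 2.52, 2.21 and 2.21, so the 2 disagree widely on level. The 10 named probe sets nearest in number to the one used belong to genes on chromosome 6, whereas COX6A1 lies on chromosome 12, as do all 10 neighbours of the dim one. RefSeq lists COX6A1 pseudogenes on chromosome 6 (COX6A1P2 and COX6A1P3). The values under this name are therefore uncertain as measures of COX6A1. For each of the other members all 10 such neighbours of the probe set used lay on the gene's own chromosome.

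Several complex IV subunits exist as tissue-restricted forms. The 4 members under the level filter were all of this kind: COX6A2 of heart and skeletal muscle was at 4.16, and COX6B2, COX7B2 and COX8C, known from testis, were at 4.15, 2.44 and 2.68. Each of these had an identical value on all 3 arrays. COX4I2, a form known from lung and from the response to low oxygen, was kept and was at 5.32 on all 3 arrays. COX7A1, the heart and muscle form, was just above the filter, at 4.50 on both knockdown arrays and 4.34 on the siNC array. COX7A2, its widely expressed counterpart, was at 6.43 on all 3, from a probe set annotated to a non-coding transcript. COX7A2L, which helps join complexes III and IV into supercomplexes, was at 5.08 on the siTAZ array and 5.09 on the siYAP and siNC arrays.

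ATP synthase was represented by 3 genes, each with identical values on the knockdown arrays and a lower one on the siNC array. ATP5MJ, a small membrane subunit, had a level of 6.51 on both knockdown arrays and 6.35 on the siNC array. ATP5MK, another small membrane subunit, had 6.70 on both knockdown arrays and 6.65 on the siNC array. ATP5IF1, which blocks the enzyme from hydrolysing ATP, had 6.80 on both knockdown arrays and 6.69 on the siNC array, or 1.08-fold.

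**Figure D4:**
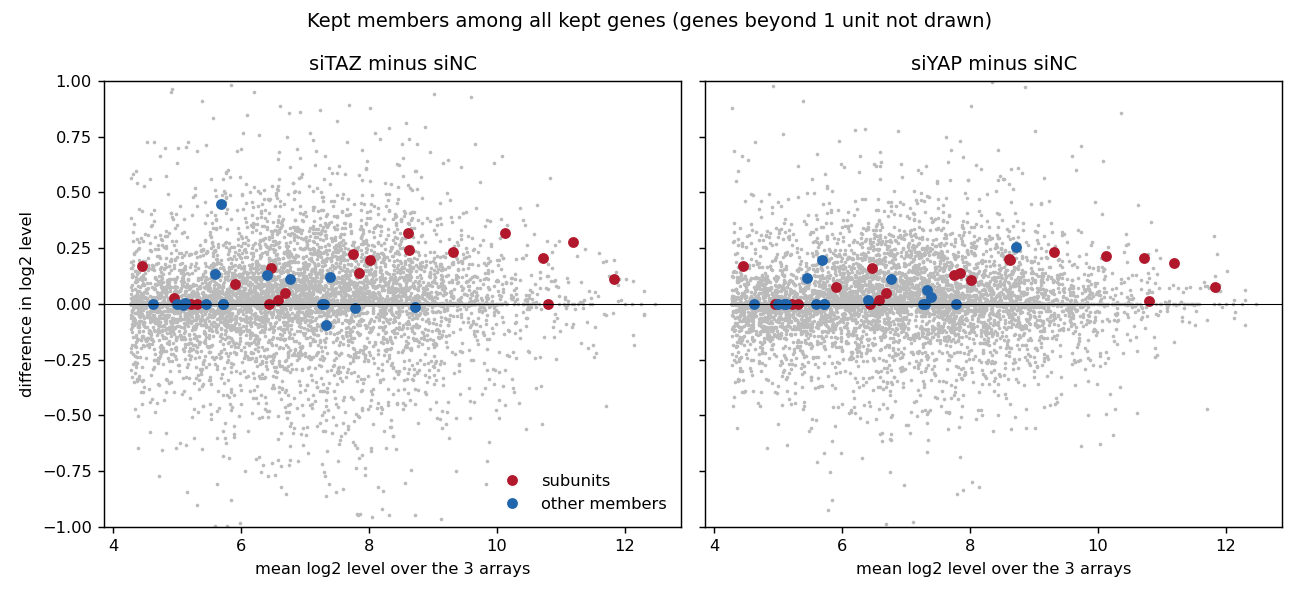
Grey points are the 10768 kept genes, placed by mean log2 level over the 3 arrays and by their difference from the siNC array, for siTAZ (left) and siYAP (right); genes beyond 1 log2 unit are not drawn. Red points are the 20 kept subunit genes and blue points the other 17 kept members. The red points lie on or above 0 in both panels, within the range of the grey points.

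Among the 12 assembly factors the siTAZ differences ran both ways, while on the siYAP array 6 were higher and 6 identical. On that array 27% of all kept genes were higher and 51.3% identical. The 6 complex IV factors were the copper-handling proteins COX11, COX17 and COX19 and the factors COX14, COX18 and COX20, which help mature other subunits. On the siYAP array all 6 were identical to siNC, and on the siTAZ array 4 were identical, with COX11 at -0.02 and COX17 at 0.0038 from it. SDHAF3, which helps insert iron-sulfur clusters into SDHB of complex II, differed most of all 41 genes. Its levels were 5.92 on the siTAZ array, 5.67 on the siYAP array and 5.47 on the siNC array, 1.36-fold and 1.15-fold above siNC. SDHAF1, which acts at the same step, had 6.48, 6.37 and 6.35 in the same order.

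SDHAF2 and SDHAF4 aid the addition of flavin to SDHA and its assembly. SDHAF2 had levels of 7.25, 7.40 and 7.34 on the siTAZ, siYAP and siNC arrays, so that siTAZ was 0.095 below siNC and siYAP 0.063 above it. SDHAF4 had 5.53 on the siYAP array and 5.41 on the siTAZ and siNC arrays. Of the complex I factors, NDUFAF7, a mitochondrial methyltransferase, had levels of 7.46, 7.37 and 7.34 on the siTAZ, siYAP and siNC arrays. NDUFAF8, a partner of NDUFAF5, was at 8.62 on the siTAZ array, 8.89 on the siYAP array and 8.63 on the siNC array, the highest siYAP minus siNC difference of the members (0.26, or 1.19-fold). The complex II and complex I factors thus differed among themselves in which knockdown array was highest. Of the non-coding transcripts, COX10-DT was at 5.68 on the siTAZ array and 5.55 on the other arrays, and NDUFA6-DT and NDUFB2-AS1 were at 5.72 on all 3. A dimmer probe set of NDUFA6-DT, not used here, read 3.82, 3.58 and 3.90 on the siTAZ, siYAP and siNC arrays.

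The third comparison set the knockdowns side by side without the control array. Of the 37 kept members, 6 were higher on the siYAP array than on the siTAZ array, where 19.9% of all kept genes were, 14 were lower, where 26.2% were, and 17 were identical, where 53.9% were. Among the 20 subunits 1 was higher (COX4I1, by 0.014), 9 were lower and 10 identical. NDUFAF8 was the only member with a difference of at least 1.2-fold, at 8.89 on the siYAP array and 8.62 on the siTAZ array (1.21-fold higher), a size reached in that direction by 3.19% of kept genes. The next highest were SDHAF2 (0.16) and SDHAF4 (0.12). The lowest were SDHAF3 (-0.25), COX10-DT (-0.13) and UQCRC1 (-0.12), and 0 members were at least 1.2-fold lower, against 2.15% of kept genes.

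Genes around the chain were taken from lists of assembly factors outside the rule, quinone synthesis and electron donors, the citrate cycle, carriers and regulators. Apart from GPD2, the genes of these lists named here and in the next paragraph were chosen after their values were seen. Of 43 further assembly factors 38 had a named probe set and 37 were kept. On the siTAZ array 17 (45.9%) of these were higher and 2 lower, with a median of 0. On the siYAP array 19 (51.4%) were higher and 1 lower, with a median of 0.0041. Of all kept genes 29.7% were higher on the siTAZ array and 27% on the siYAP array, and 21.7% were lower on each. At 1.2-fold, 2 (5.41%) were higher on the siTAZ array, against 5.62% of all kept genes, and 1 (2.7%) on the siYAP array, against 4.05%. DMAC1, a complex I assembly factor, was at 5.62, 5.52 and 5.16 on the siTAZ, siYAP and siNC arrays. Of 26 citrate cycle and pyruvate genes 14 had a named probe set, and all 14 were kept. Of these 7 (50%) were higher and 2 lower on the siTAZ array, and 9 (64.3%) higher and 1 lower on the siYAP array. Citrate synthase (CS) was at 8.63 on both knockdown arrays and 8.25 on the siNC array, and MPC1, a subunit of the mitochondrial pyruvate carrier, at 8.42 on both and 7.93 on the siNC array.

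Of 20 genes of quinone synthesis and electron donors 10 had a named probe set, and all 10 were kept. Of these 4 (40%) were higher and 3 (30%) lower on each knockdown array. Of all kept genes 29.7% were higher on the siTAZ array and 27% on the siYAP array, and 21.7% were lower on each. GPD2, the mitochondrial glycerol-3-phosphate dehydrogenase that feeds electrons to ubiquinone, was the one gene of these lists past 1.5-fold. Its levels were 7.61 on the siTAZ array, 8.49 on the siYAP array and 8.74 on the siNC array, a difference of -1.13 for siTAZ minus siNC and -0.25 for siYAP minus siNC. It was thus lower on both knockdown arrays, while ETFDH, which passes electrons from fatty acid oxidation to ubiquinone, was at 7.87 on the siTAZ array, 7.71 on the siYAP array and 7.52 on the siNC array. Of 18 genes of the regulator list 7 had a named probe set, and all 7 were kept. Of these 3 (42.9%) were higher and 2 (28.6%) lower on the siTAZ array, and 4 (57.1%) higher and 1 (14.3%) lower on the siYAP array. NRF1 was at 6.92 on all 3 arrays and ESRRA, a nuclear receptor that acts on respiratory genes, at 6.97 on the siTAZ array, 6.87 on the siYAP array and 6.65 on the siNC array. Of 10 genes of the carrier list 3 had a named probe set, the channels VDAC1, VDAC2 and VDAC3. All 3 were kept, with differences of -0.023 to 0.16 from siNC.

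The 75 mitochondrial ribosomal protein genes, all kept, were nuclear genes of a different mitochondrial machine. On the siTAZ array 37 (49.3%) were higher and 14 (18.7%) lower, with a median of 0, and on the siYAP array 45 (60%) were higher and 8 (10.7%) lower, with a median of 0.028. The respiratory chain members had 59.5% higher on the siTAZ array and 62.2% on the siYAP array. All kept genes had 29.7% and 27% higher in the same order, and 21.7% lower on each. Whether the 2 groups of genes differ was not tested, so the direction is not shown to be particular to the respiratory chain.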

How the data were processed

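RNA of 3 transfected A549 cultures was measured on 1-colour Affymetrix whole-transcript arrays, 1 array each for siTAZ, siYAP and siNC, and 500 ng of RNA was labelled, per the labels' protocols. The authors summarised the arrays with RMA, per the submitters' processing notes; neither version nor build was stated there. The deposited values were read as log2, from their range of 0.961 to 13.5. With 1 array per group their number limits the precision.

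Of 53617 probe sets, 16098 had 1 gene symbol in the platform annotation, and the other 37519, with none or several, were not used. All 16098 matched RefSeq (GRCh38.p14) and 0 symbols changed. Each of the 14884 genes was represented by its probe set with the highest mean, kept at or above 4.27. Differences were taken between log2 values with pandas 2.3.3 and counted at 1.2-fold and 1.5-fold. The members, lists and thresholds were chosen with earlier results of these data known. Named members were UQCRC1, UQCRC2, CYC1, those at 1.2-fold from siNC, the 3 highest and 3 lowest of siYAP minus siTAZ, the member with the highest level of each complex and those under the filter, with WWTR1, YAP1 and list genes at 1.5-fold; other members are given to complete their roles. Promoter sequences are RefSeq's. The counts were tested on simulated data. Alternatives were other filters, scalings, probe set rules and reference arrays.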

Additional observations from a re-analysis of the deposited data

How the results depend on the processing

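The direction of the median in the comparisons with siNC was positive under every alternative tried, but its size was not stable. For siTAZ minus siNC the members' median of 0.047 became 0.017 without the level filter, 0.12 with the filter at the 75th percentile, 0.027 with the mean of siNC and siYAP as reference, 0.12 without genes with identical siTAZ and siYAP values, and 0.022 without UQCRH, UQCRHL and COX6A1 (an alternative chosen after seeing the data). For siYAP minus siNC the median of 0.047 became 0.017, 0.093, 0.012, 0.076 and 0.024 under the same settings, with siTAZ in the place of siYAP in the reference. With those mean references the count of members at least 1.2-fold higher was 1 on the siTAZ array and 1 on the siYAP array. The counts over all genes were then 325 higher on the siTAZ array (605 with siNC alone), and 229 higher and 160 lower on the siYAP array (436 and 339 with siNC alone). For siYAP minus siTAZ the members' median of 0 became -0.0061 after a new quantile normalization and -0.042 without genes with identical values. The other 101 values of medians and counts stayed within 1.5 times, among them those after removal of a loess trend (span 0.4), averaging a gene's probe sets, and protein-coding members only (added after seeing the data). Among the members at 1.2-fold on the siTAZ array, siTAZ minus siNC was positive under each alternative that gave a value. These members were chosen for that difference, and most alternatives leave a gene's own value as it was. The lasting sign is therefore no separate support. For SDHAF3 the siYAP difference was -0.027 from the mean of siNC and siTAZ, and 0.20 from siNC alone. In the same way it was 0.043 for UQCRC1 (0.20), 0.045 for UQCRC2 (0.18) and 0.059 for COX8A (0.22). All of these were chosen for a siTAZ level above siNC, so a reference that includes siTAZ must give a lower value. Such a value is no longer a difference from siNC alone. The drop therefore cannot show whether the siYAP minus siNC differences of these members are stable. Centring on a median of 0 left all values as they were, because the median over kept genes was already 0. No paired analysis was possible because each group has 1 array, and for the same reason no replicate could be left out.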
